A study of Mus musculus with 42 samples.

Results

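RNA polymerase II (Pol II) occupancy was compared between 18 h and 1 h of lipopolysaccharide (LPS) in wild type (WT) bone marrow-derived macrophages (BMDMs), using the 3 libraries titled as WT 18 h Pol II and the 3 titled as WT 1 h Pol II, which are 6 of the 42 samples of the series. The macrophages were grown for 7 days from the marrow of C57Bl6/J mice aged 6 to 12 weeks and stimulated with 100 ng/ml LPS, a component of the outer membrane of Gram-negative bacteria that signals through Tlr4. The 3 further WT Pol II libraries at 0 h gave the resting level, and 6 Pol II libraries at the same 2 times, labelled as knockout (KO) of Nr4a1, the gene of the nuclear receptor Nur77, gave a repeat of the comparison in other samples. The KO mice carried a deletion of Nr4a1 in all tissues, made with a CMV-driven Cre that was then bred out, and the WT mice were their littermates. The authors' methods call the ChIP-seq replicates biological. Neither they nor the labels say whether the 3 libraries of a group came from separate mice or cultures. The p-values therefore measure the spread between these libraries, and how far that reflects differences between mice is not known.

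Pol II transcribes all protein-coding genes, and chromatin immunoprecipitation followed by sequencing (ChIP-seq) shows where on the genome it is bound. In macrophages LPS first activates NF-κB, AP-1 and serum response factors, which induce immediate early transcription factors, cytokines and chemokines within the first hour. Among the early products are inhibitors of the same pathways, such as the NF-κB inhibitors Nfkbia and Tnfaip3, and interferon beta, which acts back on the cells to induce a second set of genes. The comparison of 18 h with 1 h therefore asks which early genes were shut off, which late genes had started, and what happened at genes for basic cell functions.

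Promoter sequences are given for 8 genes of this response, since they show the short elements for which early and late genes are known. The sequences are the 160 bases before the start of the gene from RefSeq (mouse GRCm38.p6, the mm10 build of the files), written 5′ to 3′ on the strand of the gene. The first 4 genes, the chemokines Cxcl1, Cxcl2 and Cxcl3 and the inhibitor Nfkbia, were lower at 18 h, and capitals mark matches to the κB motif, the binding element of NF-κB. They lie at chr5:90891085-90891244, chr5:90903739-90903898 and chr5:90785941-90786100 on the plus strand and at chr12:55492648-55492807 on the minus strand.
Cxcl1: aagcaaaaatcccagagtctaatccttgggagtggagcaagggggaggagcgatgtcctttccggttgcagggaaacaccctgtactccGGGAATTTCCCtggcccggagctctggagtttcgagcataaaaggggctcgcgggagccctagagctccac
Cxcl2: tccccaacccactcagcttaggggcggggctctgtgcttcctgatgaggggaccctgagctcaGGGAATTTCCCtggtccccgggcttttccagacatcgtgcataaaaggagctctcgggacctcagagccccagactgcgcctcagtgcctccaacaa
Cxcl3: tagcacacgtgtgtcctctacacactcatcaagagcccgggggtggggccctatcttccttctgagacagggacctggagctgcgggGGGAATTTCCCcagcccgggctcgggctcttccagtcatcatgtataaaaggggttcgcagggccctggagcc
Nfkbia: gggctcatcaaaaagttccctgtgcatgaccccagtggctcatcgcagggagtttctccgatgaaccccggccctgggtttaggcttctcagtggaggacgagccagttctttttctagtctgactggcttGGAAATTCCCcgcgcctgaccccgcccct

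The other 4 genes are antiviral genes of the interferon response. Ifit3, Oas3 and Ddx60 were called higher at 18 h, and Ifit1, with a change of 0.85 ± 0.08, was not called. Capitals mark the core of the interferon-stimulated response element (ISRE, written GAAANNGAA and searched on both strands). They lie at chr19:34640729-34640888 and chr19:34583369-34583528 on the plus strand, at chr5:120777660-120777819 on the minus strand and at chr8:61927927-61928086 on the plus strand.
Ifit1: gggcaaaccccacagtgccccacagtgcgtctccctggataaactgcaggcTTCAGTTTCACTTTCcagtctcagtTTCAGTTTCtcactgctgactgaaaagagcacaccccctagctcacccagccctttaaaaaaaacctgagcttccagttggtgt
Ifit3: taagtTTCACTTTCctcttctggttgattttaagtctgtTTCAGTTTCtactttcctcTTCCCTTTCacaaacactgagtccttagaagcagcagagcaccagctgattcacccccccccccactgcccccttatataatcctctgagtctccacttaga
Oas3: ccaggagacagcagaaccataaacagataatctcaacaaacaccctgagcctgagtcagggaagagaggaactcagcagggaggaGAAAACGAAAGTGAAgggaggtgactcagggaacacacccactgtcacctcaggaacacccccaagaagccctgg
Ddx60: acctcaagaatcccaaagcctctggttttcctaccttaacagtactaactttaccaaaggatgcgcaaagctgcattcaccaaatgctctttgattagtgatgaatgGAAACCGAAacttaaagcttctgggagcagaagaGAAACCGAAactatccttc

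Of 16504 promoters of 300 bases matched to the genes of the annotation, 4.79% held the κB motif and 8.30% the ISRE core. Among the early cytokines and chemokines, 5 of 13 matched promoters held the κB motif, and among the feedback regulators 7 of 25 did. The ISRE core was found in 23 of 36 promoters of the interferon response list. A match is a description of the letters in this window and not evidence of binding.

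The libraries held 21730523 to 29012843 tags at 1 h and 26221098 to 35122744 at 18 h. Enriched regions numbered 38150 to 40007 per library at 1 h and 47081 to 49132 at 18 h. Over a common density floor the counts overlapped, with 31537 to 38013 and 29601 to 39899 (exact two-sided permutation test of 3 against 3 libraries, p = 0.8). All regions covered 151 ± 6.42 Mb against 189 ± 8.999 Mb (SD, n = 3; exact two-sided permutation test, p = 0.1, the smallest that 3 against 3 libraries allow). Regions held 76.9 ± 1.40% of all tags at 1 h and 79.7 ± 0.360% at 18 h. Replicates correlated across genes, which are not independent of each other, with r between 0.989 and 0.991 in both groups. The macrophage genes Adgre1, Spi1, Csf1r and Lyz2 carried Pol II in every library, whereas of 24 genes that mark other cell types 16 did not pass the filter, among them Cd3e, Mpo, Gata1, Col1a1 and Epcam, all listed at 0 in the 6 libraries. Of the 8 others, 5 were called higher at 18 h, with mean levels of 12 to 461 normalized tags there, and the whole list held 0.00534% of gene tags at 1 h and 0.0128% at 18 h. The part of other cells in the results was not tested.

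The Pol II value of a gene was the number of normalized tags, that is tags per 10000000 in the library, of the enriched regions over the gene body and 500 bp on each side, each region being shared out by overlap. A listing of 0 means that no enriched region was called over the window, not that Pol II was absent. A gene was called higher or lower at 18 h with a limma Benjamini-Hochberg adjusted p under 0.05 and a change of more than 1 on the scale of log2(normalized tags + 10). Of 12913 genes tested, 5526 were called higher at 18 h (42.8%) and 1209 lower (9.36%). The median change over all genes tested was 0.81 on this scale. When each library was centred on its median gene, 2406 genes were called higher (18.6%) and 2841 lower (22.0%), and with quantile normalization 2751 and 2259. Counts of list members with centred libraries below stand against these centred shares. Changes below are as deposited, and a change of a gene relative to the median gene is obtained by subtracting 0.81. Normalized tags are shares of a library without a spike-in, so a gain in Pol II at one gene and a loss elsewhere cannot be told apart, nor can fewer cells using a gene and less Pol II per cell.

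**Figure D1:**
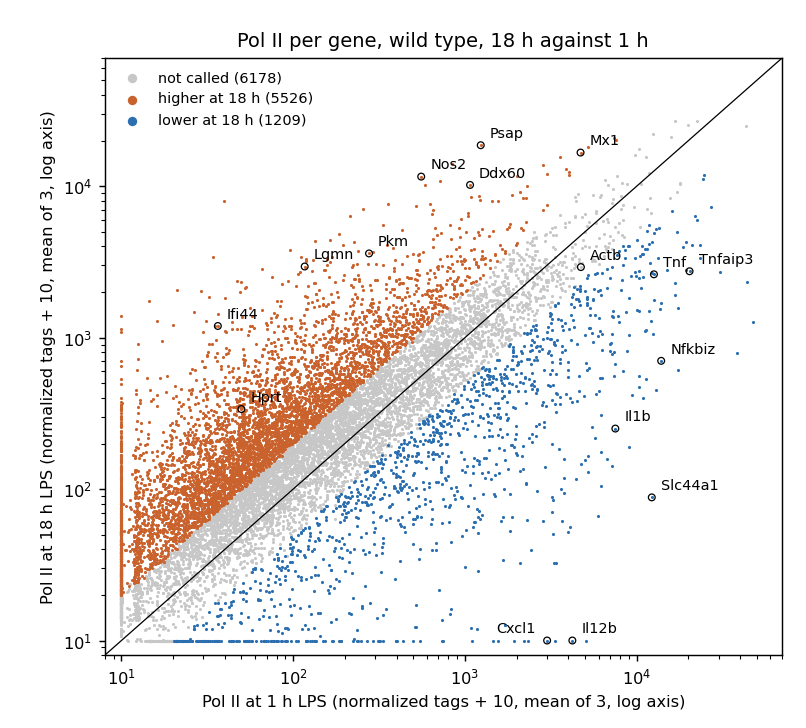
Mean Pol II per gene (normalized tags + 10, log axes) at 1 h (x axis) and at 18 h (y axis) of LPS in WT macrophages, 3 libraries each, for the 12913 genes tested; blue, 1209 genes called lower at 18 h; orange, 5526 called higher; grey, not called; the line marks equal values. Il12b and Cxcl1 sit on the lower edge because they were listed at 0 at 18 h, and the bulk of the genes lies above the line.

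The tags had moved between these groups of genes. The 1209 genes called lower held 41.8 ± 0.300% of all gene tags at 1 h and 8.72 ± 0.0781% at 18 h, and 14.8% at rest. The 5526 genes called higher held 10.3 ± 0.225% at 1 h, 42.9 ± 0.149% at 18 h and 35.8% at rest. These shares describe groups chosen by the change itself. The 100 genes with the most tags, a set chosen anew in each library, held 23.6 ± 0.322% at 1 h, 15.8 ± 0.238% at 18 h and 14.7% at rest. Against rest, in fits that share these libraries, 10.3% of genes were called higher and 43.3% lower at 1 h, and 12.6% higher and 14.1% lower at 18 h. The median change against rest was -0.82 at 1 h.

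Early cytokines and chemokines lost Pol II between 1 h and 18 h. Of 20 genes, 14 were lower (70%, against 9.36% of all genes) and 2 higher (10%, against 42.8%), with a median change of -2.90 against 0.81 for all genes, and with centred libraries 16 were lower and none higher. The list took 1.07 ± 0.0666% of gene tags at 1 h and 0.175 ± 0.00322% at 18 h. Cxcl1 (chr5:90891241-90893115, mm10), a chemokine for neutrophils, held 2791, 3036 and 3172 normalized tags in the 3 libraries at 1 h and was listed at 0 in all 3 at 18 h. It had stood at 16.4 ± 8.85 at rest, so at 18 h it was called lower than before stimulation. Its neighbour Cxcl2 held 2978, 3240 and 3385 tags at 1 h and 64.1, 58.1 and 59.6 at 18 h, a change of -5.51 ± 0.11 (SE; limma adjusted p = 5.76e-18), and was also below its resting 267 ± 7.83. At 1 h the tags of Cxcl1 and Cxcl2 stood in the same proportion in the 3 libraries. Region tags are shared evenly by length, so neighbours under the same region at 1 h are not measured separately. Cxcl3 and the cytokine Lif were listed at 0 at both 0 h and 18 h and held 224 to 238 and 272 to 293 tags at 1 h.

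Il1b and Il1a, the genes of the interleukin-1 cytokines, lost most of their Pol II but kept a region over the whole gene. Il1b held 7297, 7537 and 7675 tags at 1 h and 240, 235 and 248 at 18 h, which was 31.1-fold lower and still above its resting level of 108 ± 4.80. Il1a went from 8017, 8176 and 8662 to 574, 608 and 582. Tnf, the gene of tumour necrosis factor, held 12047, 12950 and 12784 tags at 1 h and 2636, 2542 and 2653 at 18 h, a 4.83-fold difference with no overlap between the groups. The neighbouring chemokine genes Ccl3 and Ccl4 had nearly the same change, -2.90 and -2.91. In the window of 500 bp on each side of the start both changed by -2.87. Region tags are shared evenly by length, so genes under the same region are not measured separately. Against the group, Il23a, a subunit of interleukin-23, rose from 245, 138 and 228 to 551, 531 and 559 tags, and Gdf15 rose from 432 to 472 tags to 1475 to 1598. Ptgs2, the inducible cyclooxygenase, held 1304 to 1368 tags at 1 h and 1254 to 1321 at 18 h, a change of -0.07 ± 0.19 that was not called.

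The feedback regulators, genes that restrain NF-κB and MAP kinase signalling or belong to NF-κB itself, had 19 of 30 members lower (63.3%, against 9.36% of all genes), none higher and 11 not called, with a median of -1.502. In the window of 500 bp on each side of the start, 11 of 29 were lower, where 3.93% of all genes were, with a median of -0.83. With each library centred on its median gene, 28 of the 30 were called lower, where 22.0% of all genes were. Nfkbiz, an atypical IκB protein, went from 13667, 13650 and 14315 tags to 665, 700 and 714, a 20.0-fold difference (limma adjusted p = 2.32e-19). At 18 h its enriched region covered 52.2% of the gene body, against 100% at 1 h and 59.4% at rest, and its level was 0.18 ± 0.06 above rest on the log2 scale. Tnfaip3 (A20), a ubiquitin-editing enzyme that inhibits NF-κB signalling, held 20451, 20302 and 20173 tags at 1 h and 2702, 2665 and 2836 at 18 h, 7.43-fold lower and near its resting 2105 ± 228. Nfkb1, the gene of the NF-κB p50 precursor, changed by -3.14 ± 0.09 and Nfkbia by -1.96 ± 0.07. Among the phosphatases of MAP kinases, Dusp5 (-4.24), Dusp16 (-3.42), Dusp2 (-2.03), Dusp4 (-1.58) and Dusp1 (-1.42) were all called lower over the gene. In the start window, Dusp2 (-1.97) was called lower, whereas Dusp5 (-0.95), Dusp4 (-0.64), Dusp16 (-0.05) and Dusp1 (0.15) were not. Socs3, an inhibitor of cytokine receptor signalling, fell from 2931 to 3065 tags to 843 to 1071. Tnip1, Pim1 and Birc3 had smaller changes, -0.91, -0.80 and -0.37, that were not called.

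Of 25 immediate early transcription factors, 7 were lower (28%, against 9.36% of all genes) and 4 higher (16%, against 42.8%), with a median of -0.45 against 0.81. With centred libraries 15 were called lower and 1 higher, where 22.0% and 18.6% of all genes were. In the start window 2 of 23 were lower and 2 higher, where 3.93% and 16.4% were. Against rest, 4 of the 25 were called higher and 9 lower at 1 h, where 10.3% and 43.3% of all genes were. Most of this list was thus not called induced at 1 h. At 18 h 3 were higher than at rest and 12 lower, where 12.6% and 14.1% were. Egr2 fell from 988, 1095 and 999 tags to 63.6, 77.3 and 61.4, and Fosl2 from 919 to 952 tags to 157 to 175. Nr4a1 itself was low at both times, with 25.5, 23.0 and 30.4 tags at 1 h and 7.46, 5.98 and 0 at 18 h, against 195 ± 11.3 at rest. In the other direction Jun, a subunit of AP-1, rose from 207, 220 and 224 tags at 1 h to 655, 612 and 616 at 18 h, below its resting 968. Klf4 rose from 38.6 to 43.4 tags to 227 to 245. Fos held 382 to 412 tags at 1 h and 622 to 688 at 18 h without passing the size threshold (0.71 ± 0.11), while it had held 1519 at rest.

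Inflammatory genes that the list had grouped as later products were split. Of 37 tested, 20 were lower (54.1%, against 9.36% of all genes) and 8 higher (21.6%, against 42.8%), with a median of -1.01, and with centred libraries 26 were lower and 4 higher. The list was chosen with results of these data known and its name does not describe most of its members here, since 29 of the 37 were already called higher at 1 h than at rest, where 10.3% of all genes were. Il12b (chr11:44400063-44414033, mm10), the p40 subunit shared by interleukin-12 and interleukin-23, held 4096, 4226 and 4314 tags at 1 h and 0 in each library at 18 h, and its mean was 0.236 at rest. The collagenase gene Mmp13 went from 4961, 4955 and 5205 tags to a listing of 0. Vcam1, a leukocyte adhesion molecule, and the chemokine gene Ccl22 held 1476 to 1594 and 720 to 764 tags at 1 h and were listed at 0 at 18 h too. Il6 fell to 104, 122 and 107 tags from 376, 397 and 390, and Cd40, a costimulatory receptor, from 7190 to 7687 to 641 to 673.

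**Figure D2:**
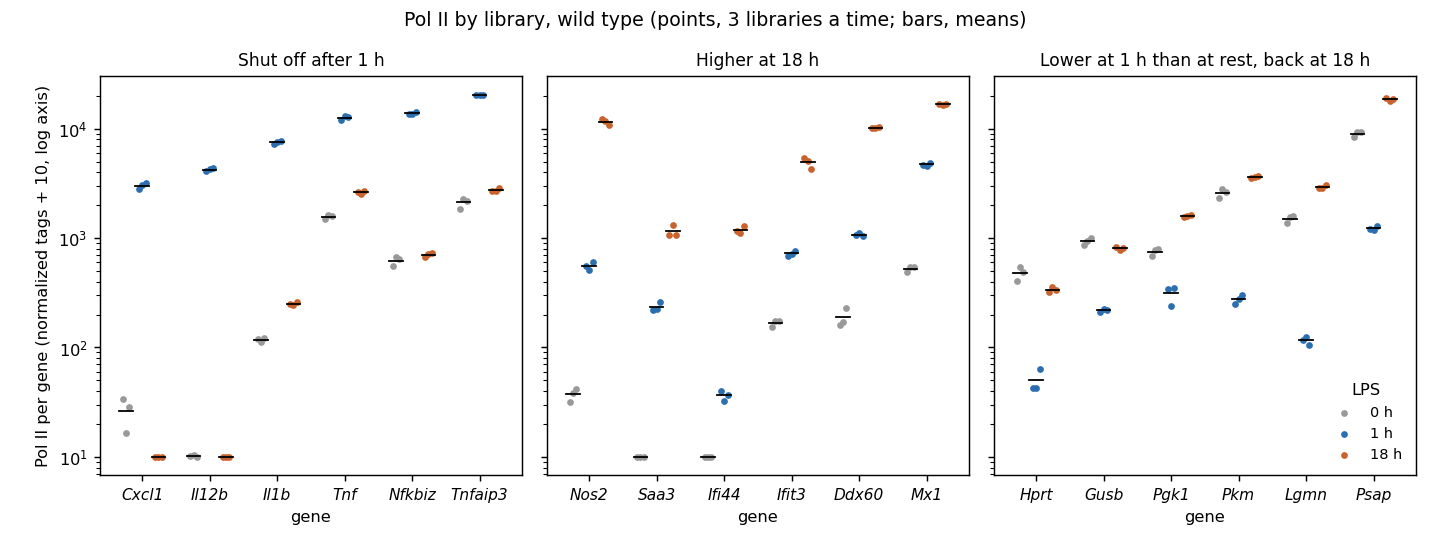
Pol II per gene (normalized tags + 10, log axis) in each WT library at 0, 1 and 18 h of LPS (points, 3 libraries a time; bars, their mean). Left, Cxcl1 and Il12b are at the floor at 18 h while Tnf and Tnfaip3 return to near their resting level; middle, all 18 h points lie above the 1 h points; right, the 1 h points lie below those of both other times.

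The largest gain in this list was at Nos2 (chr11:78920787-78960254, mm10), which encodes the inducible nitric oxide synthase of activated macrophages. It held 548, 498 and 594 tags at 1 h and 12112, 11797 and 10786 at 18 h, a 21.2-fold difference (4.38 ± 0.21; limma adjusted p = 1.08e-12), from 27.5 ± 5.04 at rest. The H3K27ac signal within 2500 bp of its start, a mark of active promoters, rose from 77.4 ± 14.2 to 583 ± 12.6 normalized tags (SD, n = 3). Saa3, an acute phase protein, rose from 210, 216 and 249 to 1067, 1302 and 1052 tags and was listed at 0 at rest. Lcn2, a siderophore-binding protein, was listed at 0 at 1 h and held only 17.6 to 24.8 tags at 18 h. Acod1, the enzyme of itaconate synthesis, was called lower, but its 3 libraries at 18 h were spread, with 10650, 6880 and 15737 tags against 23306, 24770 and 24680 at 1 h. Without the second library at 18 h its change was -0.90 and no longer past the size threshold.

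Of 42 interferon response genes, 21 were higher at 18 h than at 1 h and 4 lower, where 42.8% and 9.36% of all genes were, with a median of 0.94 against 0.81. With centred libraries 11 were called higher and 8 lower. Against rest, in fits that share the 0 h libraries, 35 of the 42 were called higher at 1 h, where 10.3% of all genes were, and 37 at 18 h, where 12.6% were. Ifi44 held 22.5 to 29.8 tags at 1 h and 1151, 1113 and 1289 at 18 h, a 44.8-fold difference, and was listed at 0 at rest. Ddx60, a helicase that assists RNA sensing, rose from 1066, 1093 and 1024 to 10087, 10126 and 10349 tags. At 1 h its regions covered 21.0% of the gene body and at 18 h 100%, while in the window around the start its change was 0.04 and not called. Ifit3 rose 6.90-fold, from 681, 706 and 754 to 5379, 5080 and 4299 tags, and Oas3, an activator of RNase L, from 317 to 350 to 2033 to 2162. Mx1, an antiviral GTPase, rose from 4578 to 4858 tags to 16585 to 16801.

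Other interferon genes held similar levels at both times or fell. Isg15, a ubiquitin-like modifier, held 447, 498 and 475 tags at 1 h and 459, 508 and 470 at 18 h, with overlapping groups. Rsad2 (viperin) held 13990 to 16868 and 17742 to 27392 tags and was not called, and Cxcl10, whose window lies within that of another gene, held 1559 to 2394 and 1580 to 1750. The 4 genes that fell were Ifnb1, Cxcl9, Ifih1 and Irf1. Ifnb1, the interferon beta gene, held 161, 259 and 256 tags at 1 h and was listed at 0 at 0 h and 18 h. Ifih1 (MDA5), a sensor of double-stranded RNA, fell from 14778 to 15233 tags to 2744 to 2793. Among 19 antigen presentation genes, 3 were higher and 2 lower, where 42.8% and 9.36% of all genes were, with a median of 0.57. With centred libraries none of them was higher and 8 were lower. Nlrc5, the activator of MHC class I genes, rose by 1.35 ± 0.10, and Cd80, a costimulatory ligand, fell by 2.42 ± 0.09.

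**Figure D3:**
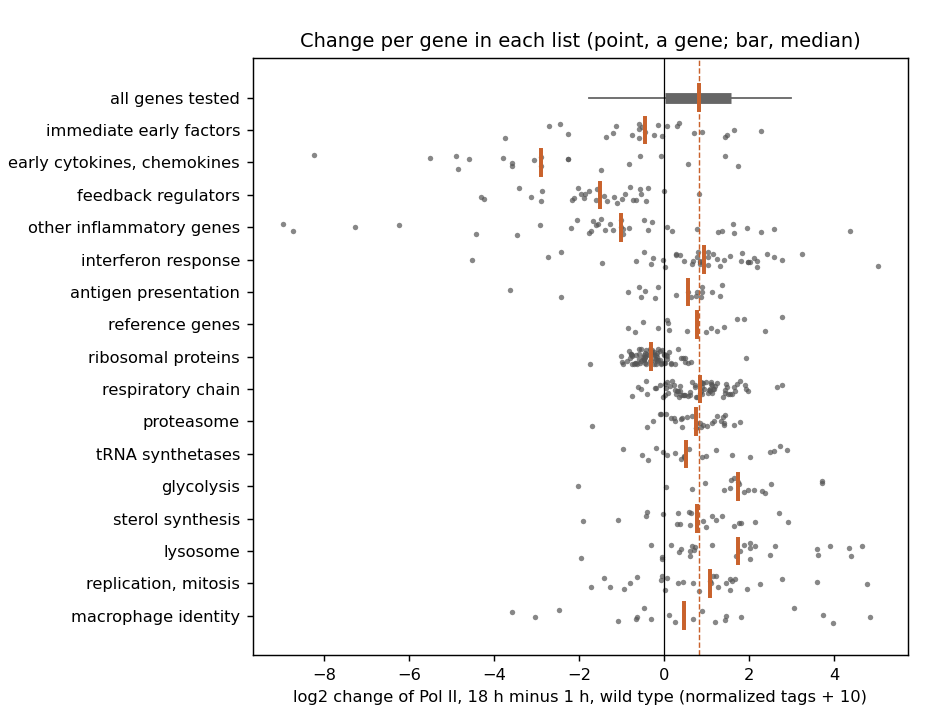
Change of Pol II per gene between 1 h and 18 h in WT (x axis, log2 of normalized tags + 10) for each gene list (points, genes; solid bars, list medians; dashed line, the median of all genes at 0.81; for all genes, the thick bar spans the quartiles and the thin line the 5th to 95th percentile). The medians of the early cytokine and feedback lists lie left of 0, and those of the glycolysis and lysosome lists lie right of the dashed line.

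Genes in common use as references moved like the genes tested as a whole. Of 16, 7 were higher (43.75%, against 42.8% of all genes) and none lower, with a median of 0.77 against 0.81, and with centred libraries the median was -0.10, with 3 higher and 4 lower. Hprt (chrX:52988137-53021659, mm10), a purine salvage enzyme, held 32.9, 33.0 and 54.0 tags at 1 h and 311, 344 and 328 at 18 h, an 8.20-fold difference (limma adjusted p = 1.99e-12), against 469 ± 68.9 at rest. Gusb rose from 200 to 217 tags to 769 to 813 and Pgk1 from 231 to 340 to 1560 to 1602. Polr2a, the largest subunit of Pol II, rose from 680, 680 and 669 to 2210, 2207 and 2273 tags. Its regions covered 22.1% of the gene at 1 h, 93.6% at 18 h and 89.9% at rest, while in the window around its start it changed by -0.59 (limma adjusted p = 0.0265). Gapdh rose by 1.40 ± 0.08. Actb, Eef1a1 and Ppia had changes of -0.70, -0.86 and -0.51, none of them called as deposited.

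Lysosome genes had a median gain above that of all genes. Of 28, 16 were higher (57.1%, against 42.8% of all genes) and 1 lower (3.57%, against 9.36%), with a median of 1.73, and with centred libraries 13 were called higher, where 18.6% of all genes were. The list held 0.468 ± 0.0109% of gene tags at 1 h, 1.25 ± 0.0239% at 18 h and 1.21% at rest. Psap (chr10:60277627-60302597, mm10), the precursor of the saposins that help degrade sphingolipids, held 1209, 1181 and 1288 tags at 1 h and 19206, 17986 and 18737 at 18 h, 15.2-fold higher, against 8950 ± 579 at rest. Lgmn, an asparaginyl endopeptidase, rose 27.6-fold, from 108, 116 and 96.4 to 2874, 2874 and 3072 tags. Npc1, a cholesterol exporter of the lysosome, rose from 55.9 to 96.3 tags to 1700 to 1790, and Tfeb, a transcription factor of lysosome genes, from 144 to 184 to 3336 to 3422. Lipa, the lysosomal acid lipase, rose by 3.61 ± 0.06. The cathepsin L gene Ctsl was the exception and fell from 2927 to 3123 tags to 758 to 805.

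Of 18 glycolysis genes, 14 were higher (77.8%, against 42.8% of all genes) and 1 lower (5.56%, against 9.36%), with a median of 1.75, and with centred libraries 8 were higher and 1 lower. Pkm, pyruvate kinase, rose from 239, 267 and 294 to 3533, 3563 and 3667 tags, and Pfkl, a phosphofructokinase, from 40.6 to 44.2 to 630 to 724. Pfkfb3, which makes the activator of phosphofructokinase, rose from 912 to 938 to 4573 to 4687 tags. Hk2 held 1532 to 1628 and 1590 to 1671 tags and was not called, and the phosphofructokinase gene Pfkp fell by 2.02 ± 0.08. The H3K27ac signal at the starts of 17 glycolysis genes was called higher at 10 and lower at 1, where 8.57% and 9.6% of all starts were.

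Of 74 respiratory chain genes, 29 were higher (39.2%, against 42.8% of all genes) and none lower, with a median of 0.85, and with centred libraries 5 were higher and 7 lower. Of 31 proteasome genes 11 were higher (35.5%) and 1 lower, with a median of 0.76, and with centred libraries none was higher and 3 were lower. Of 20 tRNA synthetase genes 7 were higher (35%) and none lower, with a median of 0.53, and with centred libraries 5 were higher and 4 lower. Wars, Sars and Cars, for tryptophan, serine and cysteine, rose by 2.90, 2.73 and 2.58, whereas Vars, Hars and Kars had changes of -0.97, -0.51 and -0.38 that were not called. In the start window 1 of the 20 was called higher and none lower, where 16.4% and 3.93% of all genes were. Cars changed by 0.11 there. Replication and mitosis genes had 15 of 29 higher (51.7%, against 42.8% of all genes) and 3 lower (10.3%, against 9.36%), with a median of 1.07. With centred libraries 5 were higher and 6 lower, and 13 of the 29 were called lower at 18 h than at rest, where 14.1% of all genes were. Ccne1, cyclin E1, rose from at most 10.51 tags to 130 to 176, while Mki67 fell by 1.42 ± 0.11 over the gene and changed by 0.55 in the start window (limma adjusted p = 1.05e-05). Of 22 sterol synthesis genes, 9 were higher (40.9%, against 42.8% of all genes) and 2 lower (3 and 4 with centred libraries), among the latter their transcription factor Srebf2 (-1.91 ± 0.12). In the start window Srebf2 changed by 0.35 (limma adjusted p = 0.075).

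Ribosomal protein genes stood below these lists. Of 79 genes, 1 was called higher and 2 lower, where 42.8% and 9.36% of all genes were. Their median change was -0.31 where that of all genes was 0.81. Their share of gene tags was 0.421 ± 0.00606% at 1 h, 0.351 ± 0.00845% at 18 h and 0.615% at rest. Regions covered the whole gene body at the median at all 3 times. Rpl10a, which fell from 383 to 408 tags to 104 to 117, had the largest loss. With libraries centred on the median gene, 55 of the 79 were called lower, where 22.0% of all genes were.

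The reach of the regions over the gene body moved with these changes. At the median over all genes tested, regions covered 29.8% of the body at rest, 13.8% at 1 h and 27.2% at 18 h. In the window of 500 bp on each side of the start, the median change was 0.35 rather than 0.81, and 1791 of 10908 genes were called higher (16.4%) and 429 lower (3.93%). For the lysosome list the median change was 0.56 at the start and 1.73 over the gene, and for the respiratory chain 0.27 and 0.85. Eprs, a tRNA synthetase for glutamate and proline, showed this in full: its regions covered 11.4% of the gene at 1 h and 80.8% at 18 h, its level rose by 2.501 ± 0.18 over the gene, and at the start it changed by -0.12. Regions covered the early cytokine and feedback genes in full at the median at both 1 h and 18 h, and the immediate early factors by 100% and 74.5%. Among the latter, Fosl2 was covered in full at 1 h and by 23.2% at 18 h, with -2.44 over the gene and -0.14 at the start. The macrophage gene Mrc1 was covered by 66.5% at 1 h and 4.01% at 18 h. Region lengths depend on the depth of a library, which overlapped between the groups (exact two-sided permutation test of total tags, 3 against 3 libraries, p = 0.4), and the part of depth was not tested. With regions under a common density left out, the covered length still differed by 27.8 Mb.

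**Figure D4:**
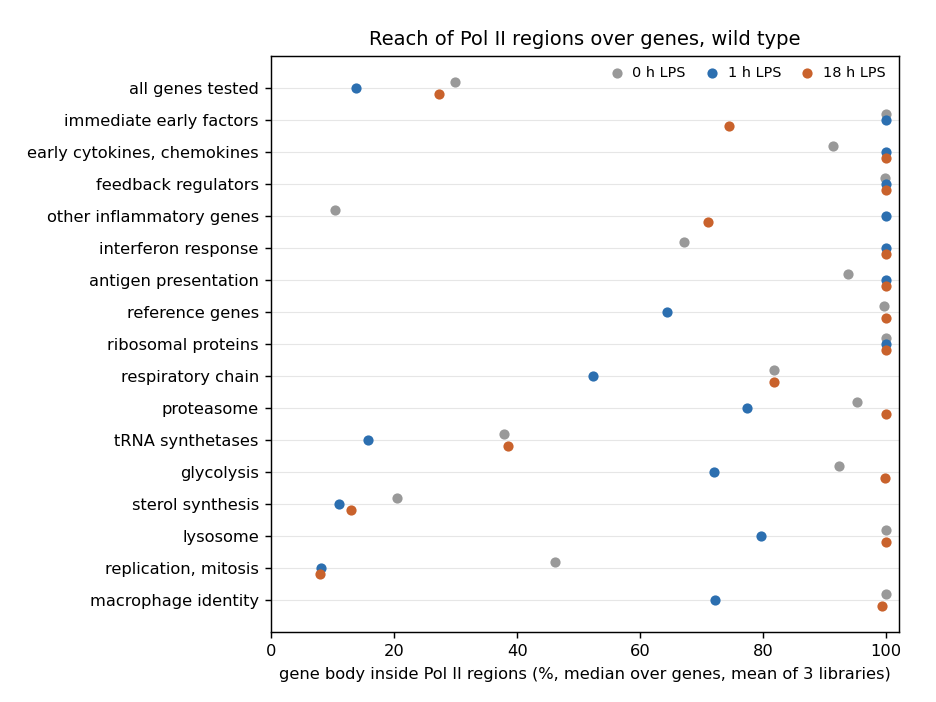
Median over genes of the share of the gene body inside Pol II regions (x axis, percent; each gene's value is the mean of 3 libraries) for each gene list at 0 h (grey), 1 h (blue) and 18 h (orange) of LPS in WT. The blue points lie left of both others for reference, respiratory chain, glycolysis and lysosome genes, and at 100% for the early cytokine and feedback lists.

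The gains were similar across gene lengths. In 5 equal groups of genes by length, the median change was 0.66 in the shortest group and 0.82 to 0.87 in the other 4. Genes called lower made up 7.51% of the shortest group and 14.9% of the longest, which held genes of at least 65233 bp.

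Macrophage genes went both ways. Of 20, 8 were higher (40%, against 42.8% of all genes) and 4 lower, with a median of 0.47, and with centred libraries 4 were higher and 8 lower. Siglec1 (CD169), a sialic acid receptor induced by interferon, held 41.6, 30.6 and 30.6 tags at 1 h and 1299, 1077 and 1414 at 18 h, against 623 at rest. Fcgr1, a high-affinity Fc receptor, rose 16.2-fold to 3716, 3726 and 3738 tags, and Trem2 from 17.4 to 26.1 to 385 to 425. Csf1r, the receptor for macrophage colony-stimulating factor, rose by 1.46 ± 0.06 to 2307 to 2383 tags and stayed below its resting 5179. Mrc1, the mannose receptor, fell from 1449, 1312 and 1438 tags to 106, 114 and 103, from 5543 ± 409 at rest. In the start window Mrc1 changed by 0.089 (limma adjusted p = 0.55). Cd14, a co-receptor for LPS, fell 8.55-fold. Adgre1 (F4/80) held 21921 to 22676 tags at 1 h and 26688 to 26868 at 18 h and was not called.

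Of the 12 genes with the largest loss that met the rule for naming, Mmp13, Il12b, Mmp12, Cxcl1, Tnfsf4, Rbpjl, Vcam1, Olr1 and Slfn14 were listed at 0 at 18 h. Mmp12, macrophage elastase, had held 3262 to 3463 tags at 1 h and 5180 at rest, so it was occupied before LPS. Olr1, a receptor for oxidized LDL, and Tnfsf4 (OX40L) held 1429 to 1499 and 2147 to 2244 at 1 h and 2.24 and 0 at rest. Slc44a1, a choline transporter, fell 157-fold, from 12578, 12217 and 11909 to 53.4, 97.6 and 83.5 tags, and its regions from 79.2% to 0.947% of the gene. In the start window Slc44a1 changed by -0.70 and was not called. Pcdh7 and Pam fell 150-fold and 147-fold, while in the start window they changed by -1.92 and by -0.89, the latter not called. Regions covered only 6.17% of Rbpjl and 15.2% of Slfn14 at 1 h, and where in the gene they lie was not examined. Neither gene had a tested start window. Rbpjl was uneven at 1 h, with 1693, 3728 and 1525 tags, and the part of a neighbouring region was not tested.

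Of the 12 genes with the largest gain, Ifit1bl1, a relative of Ifit1, rose from 15.9 to 37.2 tags to 6978 to 8732. Scd2, a fatty acid desaturase, Wnk2, Bace2, Adam33 and Wnt4 were listed at 0 in all 3 libraries at 1 h, and Scd2 then held 1146, 1123 and 1148 tags. Inpp5d (SHIP1), a phosphatase that restrains PI3-kinase signalling, went from 26.2, 8.51 and 38.2 to 3399, 3331 and 3431 tags, and Slc40a1 (ferroportin), the iron exporter, from at most 7.58 to 868 to 918. Both had been occupied at rest, at 2378 and 1036 tags. Kmt2c, a histone methyltransferase, rose 106-fold over the gene, while in the start window it changed by 0.66 and was not called. Slc28a2 rose from 8.44, 0 and 24.7 tags to 2037 to 2074, Stra6l from 0, 0 and 21.9 to 926 to 953, and Rnf128 from 7.45 to 13.3 to 1173 to 1217. Regions covered 0.685% of Bace2 at 18 h, and its start window had no tested value. The part of a neighbouring region in the tags of Bace2 was not tested.

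Across all genes, 787 were listed at 0 in the 3 libraries at 1 h and above 0 in all 3 at 18 h, and 96 of these were also listed at 0 at rest in all 3 libraries. The converse held for 167 genes, 62 of them listed at 0 at rest, 82 above 0 in all 3 libraries at rest, and 44 with a mean of at least 100 tags at 1 h. Of 4845 regions over 5 kb from any protein-coding gene window, 2129 were called higher (43.9%) and 785 lower (16.2%), where of all 27692 regions tested 41.0% were higher and 11.2% lower. An input region overlapped 84.8% of these 4845 regions and 73.8% of all regions tested, and also each region named below. A region at chr5:90698903-90706968, whose nearest gene is Cxcl5 at 51892 bp, held 393, 409 and 459 tags at 1 h and was listed at 0 at 0 h and 18 h. A region of this kind at chr4:53406930-53414537 lay 25376 bp from the window of Slc44a1 and went from 535 to 578 tags to 0. In the other direction, a region at chr10:60242741-60255071, 22056 bp from the window of Psap, was listed at 0 at 1 h and held 465 to 472 tags at 18 h, and a long region at chr8:128147300-128286585, 71519 bp from the window of Nrp1, went from 72.7 to 112 to 4880 to 5001 tags.

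H3K27ac at gene starts was compared in WT libraries of the same times. Of 11756 starts tested, 8.57% were called higher and 9.6% lower. Of 1050 genes with less Pol II at 18 h that had a tested start, 482 had less H3K27ac and 6 more. Of 4695 genes with more Pol II, 840 had more H3K27ac and 65 less. At Cxcl2 the mark went from 526 ± 59.7 to 44.5 ± 12.99 normalized tags, whereas at Tnf it was 1191 ± 35.2 and 990 ± 160.

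The libraries labelled KO, called KO here by that label alone, repeated most of the losses. Pol II over Nr4a1 at 1 h was 33.5, 39.0 and 36.6 tags in the libraries labelled KO, all above the 25.5, 23.0 and 30.4 of WT, which goes against the direction of the label. At 18 h it was listed at 0 in all 3 libraries labelled KO. The deleted part of the gene is not given in the sources used here, so these values do not check the genotype. Of 12947 genes tested in KO, 31.1% were higher and 12.2% lower at 18 h than at 1 h, with a median of 0.47. Of the 1209 genes called lower in WT, 1083 were called lower in KO and 5 higher, and of the 5526 called higher, 3704 were called higher and 6 lower. In classes set by the KO libraries alone, 1469 genes were higher at 1 h than at 0 h in KO, and 51.8% of these were called lower at 18 h than at 1 h in WT, with a median of -1.07. Of 4377 genes that were lower at 1 h in KO, 77.4% were called higher in WT, with a median of 1.70, and 0.891% lower. The 6816 genes not called in KO had 27.9% higher and 5.91% lower. In the test of the difference between the genotypes, the change was more positive in KO at 2.12% of genes and more negative at 7.23%, with a median difference of -0.33.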

How the data were processed

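Pol II ChIP-seq libraries of WT and KO BMDMs at 0, 1 and 18 h of LPS were used, with WT H3K27ac and input libraries of the same times. Per the methods of the authors, reads were trimmed (Skewer), mapped to mm10 (HISAT2 2.1.0) and freed of duplicates, and the authors called broad regions in each library with HOMER without input (500 bp windows at a Poisson p of 0.001, stitched within 1000 bp). The deposited signal is the tags of a region per 10000000 tags of the library. Samples were grouped by their titles. Tags of regions were shared evenly over their length with 21897 protein-coding genes, over the gene body and 500 bp on each side, so a window touched at its edge carries tags of a neighbouring region. H3K27ac was taken within 2500 bp of gene starts, an addition made after seeing the data, as were the covered share of genes and the input subtraction.

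Values were tested as log2(normalized tags + 10) with limma 3.58.1 (R 4.3.3, trended variance, 6 group means over 18 Pol II libraries). A gene was tested when above 0 in at least 2 of 3 libraries of WT 1 h or 18 h. Genes were named from gene lists or as the 12 largest called changes in each direction without overlap between groups, with a mean of at least 100 tags in the higher group and under 50% of the window shared with another gene; regions, as the 5 largest in each direction over 5000 bp from a gene window. The genes, lists and tests were chosen with earlier results of these data known. Single values per library were compared by exact two-sided permutation tests. On simulated data, all 100 genes changed by 1.5 and all 100 changed by 2.5 were called with the right sign, and 2 of 12713 unchanged genes were called. These data had independent normal noise on the log2 scale, and changes were placed only in genes above a set level. They held no losses to 0 by region calling, no shared regions and no overall shift, so they do not test calls at such genes. The alternatives tried covered the pseudocount, filter, scaling, window, input, libraries and replicate block. Deviations of same-numbered libraries correlated at -0.059, -0.013 and 0.012, so the numbers do not pair the samples. A few list members are not reported here by name.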

Additional observations from a re-analysis of the deposited data

Results flagged for a closer look

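The change from 1 h to 18 h differed between the genotypes in the limma test of the difference at 274 genes that were more positive in KO and 934 that were more negative, where the median difference over all genes was -0.33. Differences below are KO minus WT on the log2 scale, from 3 libraries a group.

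Among the genes named, which come from lists rich in LPS and interferon response genes, Nos2 differed by 3.16, with 93.6, 92.2 and 67.6 normalized tags at 1 h and 16659, 16290 and 19543 at 18 h in KO. Ptgs2, level in WT, differed by 2.04 and rose in KO from 675 to 801 tags to 2621 to 3164. Il6, which fell in WT, differed by 2.22 and held 279 to 320 and 408 to 457 tags in KO. Cp, the copper carrier ceruloplasmin, differed by 2.67, with 73.1 to 76.9 and 1653 to 1695 tags in KO. Cxcl9 differed by 2.73 and was listed at 0 at both times in KO. Smaller differences were 1.44 at Nlrc5, 1.23 at Ifi44, 1.08 at Lcn2, 1.05 at Cd40 and 1.008 at Acod1, the last with a limma adjusted p of 0.05.

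Negative differences were found at Mrc1 (-1.58), Rnf128 (-1.25), Inpp5d (-1.22), Scd2 (-1.14) and Jun (-1.08). Mrc1 fell in KO from 2597 to 2711 tags to 62.1 to 67.9.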

How the results depend on the processing

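Of 114 genes named, 97 were called, and 60 kept their direction and side of the thresholds in every one of 18 alternatives that gave them a value. Leaving out each library in turn gave 5425 to 5621 genes higher and 1192 to 1246 lower, and 11155 to 11700 regions higher and 3057 to 3255 lower. With the replicate block, 5526 genes were higher and 1210 lower, and no named gene changed its call. Median centring gave 2406 genes higher and 2841 lower, and 4323 and 6871 regions, and quantile normalization gave 2751 and 2259 genes and 7394 and 5246 regions. Centring turned the median of all genes to -0.056 and the medians of the respiratory chain (-0.017), sterol synthesis (-0.085), reference (-0.10), proteasome (-0.11), antigen presentation (-0.30), tRNA synthetase (-0.34) and macrophage (-0.40) lists, and quantile normalization those of the respiratory chain (-0.074) and tRNA synthetases (-0.31). A pseudocount of 50 gave 3446 genes higher, and 4695 regions higher and 1413 lower; regions above 0 in all 6 libraries gave 4910 and 1308. In the start window, 1791 genes were higher and 429 lower, and the direction turned at Eprs (-0.12), Polr2a (-0.59), Mrc1 (0.089), Dusp1 (0.15), Srebf2 (0.35) and Mki67 (0.55). Over a common density floor, 18 h libraries had 1671 more regions than 1 h libraries instead of 9180 (exact two-sided permutation test of 3 against 3, p = 0.8).

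Regions that overlap an input region held 95.4% of gene tags at 1 h and 94.5% at 18 h, so leaving them out removed nearly all of the signal. It gave 2204 genes higher. Medians turned for the lysosome (-0.24), sterol (-0.35), macrophage (-0.62), glycolysis (-0.75), antigen presentation (-1.25), proteasome (-1.36), interferon (-2.18), immediate early (0.13) and feedback (1.35) lists. Genes turned at Klf4 (-0.48), Lgmn (-0.55), Oas3 (-0.59), Npc1 (-1.02), Nos2 (-1.49), Gusb (-1.69), Cp (-1.98), Pkm (-2.29), Ddx60 (-2.45), Nlrc5 (-3.54), Pgk1 (-3.60), Fosl2 (0.67), Cd80 (0.82), Dusp4 (1.82) and Nfkb1 (1.86). With the input tags subtracted instead, an alternative added after seeing the data, no named gene turned and 113 of 114 kept their call. Causes of these differences were not tested.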
